A study of Rattus norvegicus with 8 samples.

Results

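The membrane of a red cell is described here through 8 genes of its protein skeleton and surface, Sptb, Ank1, Slc4a1, Epb42, Rhag, Kel, Dmtn and Tmod1, in bone around implants of hyperlipidemic and normal rats. The genes were taken by symbol from the 19120 gene loci of the deposited table, and each symbol had a single row. All 8 passed the filter on low values, a mean of at least 0.5 FPKM over the libraries, together with 13742 loci in all. FPKM are sequenced fragments scaled to the length of the transcript and to the size of the library. The hyperlipidemic group holds 4 libraries from femur bone of male Wistar rats given a high-fat diet for 8 weeks, and the normal group 4 libraries from femur bone of male Wistar rats given a normal diet. Both groups were 12 to 13 weeks old and carried titanium root-form implants in the shafts of both femora. Bone within 1 mm of an implant was taken 10 days after implantation, cleared of muscle and ground to powder. Total RNA was depleted of ribosomal RNA before sequencing. The labels do not say whether a library is 1 animal or a pool, so each p-value speaks for the scatter among these libraries, which may be technical.

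The red cell membrane is held in shape by a meshwork of long spectrin strands joined at their ends by short actin filaments. Ankyrin ties beta spectrin to the anion exchanger band 3 in the membrane, and a second set of ties runs through the actin junctions. Rats make red cells in the bone marrow, and a precursor transcribes these genes only while it still has its nucleus. In a bulk sample a larger share of red cell precursors and more RNA per precursor cannot be told apart.

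Transcripts of bone and of marrow were both present. Bglap, which encodes osteocalcin, lay between 112 and 170 FPKM in hyperlipidemic libraries and between 263 and 406 FPKM in normal ones. Hbb, the beta chain of haemoglobin, lay between 6453 and 13261 FPKM in hyperlipidemic and between 5547 and 7062 FPKM in normal libraries. Normal replicates 1 and 4 stood apart by their zeros: 2011 and 1988 of the 13742 loci were listed at 0 there, against 326 to 1183 in the hyperlipidemic libraries and 230 and 762 in normal replicates 2 and 3. The zeros may be failed estimates, but none of the 8 genes was listed at 0 in any library. Deposited depths were not used here, so no counting error can be given.

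Promoter sequence was at hand for 5 of the 8 genes, Sptb, Epb42, Rhag, Kel and Tmod1, from RefSeq on build GRCr8, whereas the expression tables use Rnor_6.0. GATA1 and KLF1 are the transcription factors best known for driving red cell genes, and they bind GATA and CACCC-type letters. The 4 GATA runs searched on both strands were AGATAA and its variant AGATAG, with the forms TGATAA and also TGATAG that start with another base. In the 300 bases from 250 before to 50 after the annotated start, at least 1 of them was found in 4 of the 5, against 30.3% of 33469 promoters of the same length. Sptb held 2 such runs, and 7.94% of all promoters held at least 2. The stretches around them are shown 5′ to 3′ on the strand of the gene, so that the 4 promoters with the letters, among them that of Sptb, can be compared. Capitals mark the GATA letters or their reverse complement.
Sptb: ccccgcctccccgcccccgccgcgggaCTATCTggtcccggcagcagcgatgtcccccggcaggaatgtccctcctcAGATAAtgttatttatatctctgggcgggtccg
Epb42: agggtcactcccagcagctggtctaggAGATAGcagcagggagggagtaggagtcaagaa
Rhag: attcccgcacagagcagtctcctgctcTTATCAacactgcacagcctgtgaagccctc
Kel: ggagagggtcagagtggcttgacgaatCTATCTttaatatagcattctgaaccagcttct
The Sptb stretch is chr6:101170303-101170412, minus strand, with 51 bases between its second run and the start. The Epb42 stretch is chr3:128451733-128451792, minus strand, with 76 bases to the start. For Rhag it is chr9:27594391-27594448, minus strand, with 25 bases, and for Kel chr4:71551857-71551916, minus strand, with 110 bases. Tmod1 held none of the 4 GATA runs. CACCC was present in 3 of the 5 (Sptb, Rhag and Tmod1) and in 54.9% of all promoters, and CCNCNCCC, a pattern that can overlap CACCC, in 2 of the 5 (Sptb and Tmod1) and in 46.3%. The E-box pattern CANNTG was present in all 5 and in 72.1% of all promoters. A run of letters is a description of the sequence and was not tested as a binding site.

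The groups were compared to ask how the bone around an implant differs between hyperlipidemic and normal rats. None of the 8 genes passed over all genes tested (limma with Benjamini-Hochberg adjustment, adjusted p under 0.05), a level that 1.39% of all genes passed, 0.146% as higher and 1.24% as lower. Sptb came closest and was the only one of the 8 whose groups did not overlap. All 8 had a higher mean log2 value in the hyperlipidemic group, and 4 of them, Sptb, Slc4a1, Ank1 and Epb42, had an unadjusted p under 0.05. Among the 13742 loci, 65.0% had a positive log2 change, 8.61% were higher at an unadjusted p under 0.05, and 4.19% were higher without overlap.

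Sptb encodes beta spectrin, the chain that binds ankyrin and actin. Its locus is chr6:99659651-99783047. Its FPKM were 34.9, 23.2, 34.0 and 43.1 in hyperlipidemic replicates 1 to 4, against 15.6, 15.6, 20.0 and 14.9 in normal replicates 1 to 4. Every hyperlipidemic library lay above every normal one, with hyperlipidemic replicate 2 the lowest of its group and normal replicate 3 the highest of its own. The means were 33.8 ± 8.16 and 16.5 ± 2.33 FPKM (SD, n = 4 each), a 2.04-fold ratio. The log2 change was 0.96 with a standard error of 0.23 and a 95% interval of 0.46 to 1.47 (limma adjusted p = 0.0898). Under quantile normalization the adjusted p was 0.0447, and over all alternatives it ran from 0.0447 to 0.351. In the authors' deposited table the fold change of Sptb was 1.74, with p = 0.00415 and q = 0.448, by a formula and a test not given in the sources used here, and that table lists all 8 genes as not changed.

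Ank1 encodes the ankyrin of red cells, the adaptor between beta spectrin and band 3, and has a short form in striated muscle. Its locus is chr16:73681422-73827488. Its FPKM were 29.1, 21.0, 32.4 and 32.3 in hyperlipidemic replicates 1 to 4, against 20.6, 14.0, 23.9 and 18.7 in normal replicates 1 to 4. Hyperlipidemic replicate 2 lay between normal replicates 1 and 3, and the other hyperlipidemic libraries lay above all normal ones. The log2 change was 0.55 ± 0.23 (SE; limma adjusted p = 0.353).

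Slc4a1 encodes band 3, the chloride and bicarbonate exchanger that carries most of the carbon dioxide load of blood and anchors the skeleton. Its locus is chr10:90296141-90312386, and it was the most abundant of the 8 in every library. Its FPKM were 341, 262, 366 and 399 in hyperlipidemic replicates 1 to 4, against 201, 216, 295 and 218 in normal replicates 1 to 4. Normal replicate 3 was above hyperlipidemic replicate 2, and no other pair of libraries crossed. The means stood at 342 ± 58.2 and 233 ± 42.2 FPKM, 1.47-fold apart (log2 change 0.55 ± 0.22 SE, limma adjusted p = 0.331). Band 3 alone made up between 50.2% and 69.3% of the summed FPKM of the 8 genes in any library.

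Epb42 encodes protein 4.2, a relative of transglutaminases without enzyme activity that binds band 3 and ankyrin. Its locus is chr3:112965653-112985318. Its FPKM were 64.5, 42.2, 87.3 and 83.0 in hyperlipidemic replicates 1 to 4, against 63.6, 26.7, 41.6 and 35.5 in normal replicates 1 to 4. Normal replicate 1 came just below hyperlipidemic replicate 1, and the other normal libraries lay below every hyperlipidemic one. The log2 change was 0.73 ± 0.31 (SE; limma adjusted p = 0.358).

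Rhag encodes the Rh-associated glycoprotein, an ammonia and gas channel without which the Rh antigens do not reach the surface. Its locus is chr9:23465197-23493081. Its FPKM were 47.9, 23.6, 62.0 and 58.6 in hyperlipidemic replicates 1 to 4, against 45.8, 14.0, 29.8 and 20.7 in normal replicates 1 to 4. Again normal replicate 1 stood close to hyperlipidemic replicate 1, and hyperlipidemic replicate 2 lay among the normal libraries. The log2 change was 0.82 ± 0.39 (SE), the second largest of the 8, with a 95% interval of -0.06 to 1.69 (limma adjusted p = 0.410).

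Kel encodes the Kell glycoprotein, a surface endopeptidase that carries blood group antigens in humans and is linked there to the protein of Xk. Its locus is chr4:70979504-70996395. Its FPKM were 14.1, 9.01, 21.5 and 16.8 in hyperlipidemic replicates 1 to 4, against 13.2, 6.90, 16.2 and 10.4 in normal replicates 1 to 4. The groups interleaved, and the log2 change of 0.37 ± 0.32 (SE) did not pass (limma adjusted p = 0.618).

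Dmtn encodes dematin, which bundles actin at the junctions of the meshwork. Its locus is chr15:52292765-52320385. Its FPKM were 22.8, 19.1, 27.3 and 30.2 in hyperlipidemic replicates 1 to 4, against 31.5, 15.1, 18.5 and 16.2 in normal replicates 1 to 4. The highest value of all 8 libraries belonged to normal replicate 1, while normal replicates 2 to 4 lay below every hyperlipidemic library. The log2 change was 0.32 ± 0.27 (SE; limma adjusted p = 0.607).

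Tmod1 encodes tropomodulin 1, which caps the slow-growing end of the short actin filaments and is made in striated muscle as well. Its locus is chr5:61657507-61712051. Its FPKM were 10.0, 5.28, 7.65 and 6.17 in hyperlipidemic replicates 1 to 4, against 9.25, 3.49, 2.99 and 6.59 in normal replicates 1 to 4. The groups overlapped widely, with replicate 1 the highest of each group (log2 change 0.41 ± 0.35 SE, limma adjusted p = 0.611).

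**Figure D1:**
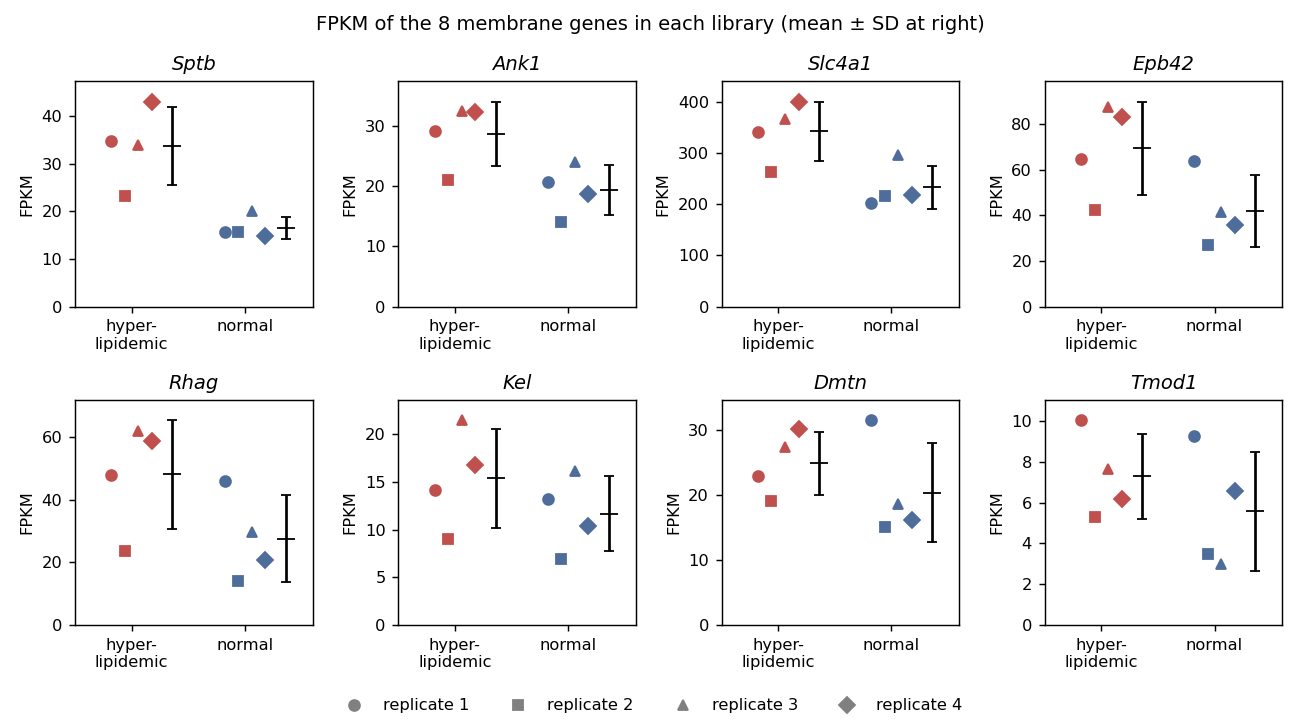
FPKM of each of the 8 membrane genes in 4 hyperlipidemic (red, left) and 4 normal (blue, right) libraries, with the replicate number shown by the shape of the symbol and the group mean ± SD as the bar. Sptb is the only gene of the 8 whose groups do not overlap, and normal replicate 1 is the highest normal library for Epb42, Rhag, Dmtn and Tmod1.

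By level the 8 genes ran from Slc4a1 through Epb42, Rhag, Sptb, Ank1, Dmtn and Kel to Tmod1, with means over all libraries of 287, 55.6, 37.8, 25.2, 24.0, 22.6, 13.5 and 6.43 FPKM. FPKM are scaled to length, so these levels can be set beside each other. Slc4a1 lay above Epb42, Epb42 above Rhag, Dmtn above Kel and Kel above Tmod1 in all 8 libraries. Rhag exceeded Sptb in 7 libraries. The order of Sptb, Ank1 and Dmtn turned between the groups: Sptb exceeded Ank1 in 4 of 4 hyperlipidemic and 1 of 4 normal libraries, and Ank1 exceeded Dmtn in 4 of 4 and 2 of 4. Their means were 33.8, 28.7 and 24.8 FPKM in hyperlipidemic bone, and 16.5, 19.3 and 20.3 FPKM in normal bone, where they lay within the spread between libraries. The turn of the order was not tested.

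The median log2 change of the 8 genes was 0.55, and that of all genes tested was 0.18, a difference of 0.38. Scaling moved the median of all genes, to 0.05 under median-of-ratios scaling and 0.06 when FPKM were rescaled to loci above 1000 bp. The median of the 8 genes was then 0.39 under both, which is 0.33 and 0.34 above all genes. Under quantile normalization the median of all genes was 0.05 and that of the 8 was 0.61. All 8 stayed higher under each of these scalings. The count with an unadjusted p under 0.05 was 1 under median-of-ratios scaling, under rescaling and without a trend in the prior variance, and it was 1 again without hyperlipidemic replicate 1, 3 or 4 or normal replicate 2 or 4. It reached 6 without normal replicate 1 and 7 with array quality weights.

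The 8 genes differed between libraries of the same group as well. Hyperlipidemic replicate 2 held the lowest value of its group for all 8. Hyperlipidemic replicates 3 and 4 held the highest value for 4 and 3 genes, and hyperlipidemic replicate 1 for Tmod1. Among normal libraries, replicate 2 held the lowest value for 5 genes. Normal replicate 1 was the highest of its group for Epb42, Rhag, Dmtn and Tmod1, and normal replicate 3 for Sptb, Ank1, Slc4a1 and Kel. The summed FPKM of the 8 genes was 564, 406, 638 and 669 in hyperlipidemic replicates 1 to 4, against 401, 312, 448 and 341 in normal replicates 1 to 4. The FPKM of all gene loci summed to 496578 to 584474 in hyperlipidemic libraries. In normal replicates 1 to 4 they summed to 510668, 857479, 709088 and 906019. The sums of the 8 genes were not rescaled to these unequal totals.

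Other genes of red cell precursors, nearly all acting inside the cell but with the erythropoietin receptor Epor among them, had a median log2 change of 0.51 over 34 of 41 listed genes that were tested. Of these, 31 were higher and 3 lower, beside 65.0% of all genes higher. The transcription factor Tal1 was the 1 that rose over all genes (log2 change 1.69, limma adjusted p = 0.0263), as 0.146% of all genes did. The Tal1 call was lost in 9 of 18 alternatives, with an adjusted p from 0.0117 to 0.242 over them. Klf1, whose product drives globin and membrane genes, measured 80.6, 71.2, 108 and 131 FPKM in hyperlipidemic replicates 1 to 4, against 91.1, 51.5, 69.7 and 57.8 in normal replicates 1 to 4. Here too normal replicate 1 was the highest normal library. Hemgn, a nuclear protein of precursors, was at 64.8 to 157 FPKM in hyperlipidemic libraries, against 190 FPKM in normal replicate 1 and 52.2 to 73.8 FPKM in the other normal libraries. Ahsp, the chaperone of alpha globin, was at 567 to 1188 FPKM in hyperlipidemic libraries and at 521 to 1394 FPKM in normal ones, and normal replicate 1 again held the highest value. Alas2, the first enzyme of haem synthesis in red cells, was at 160 to 351 FPKM in hyperlipidemic libraries and at 147 to 302 FPKM in normal ones. Of the haemoglobin chains, Hbb had a log2 change of 0.77 (limma adjusted p = 0.423) and Hba-a1, an alpha chain, of -0.04 (limma adjusted p = 0.978), and the difference between them was not tested. The sign of Hba-a1 turned under 6 of the 18 alternatives.

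**Figure D2:**
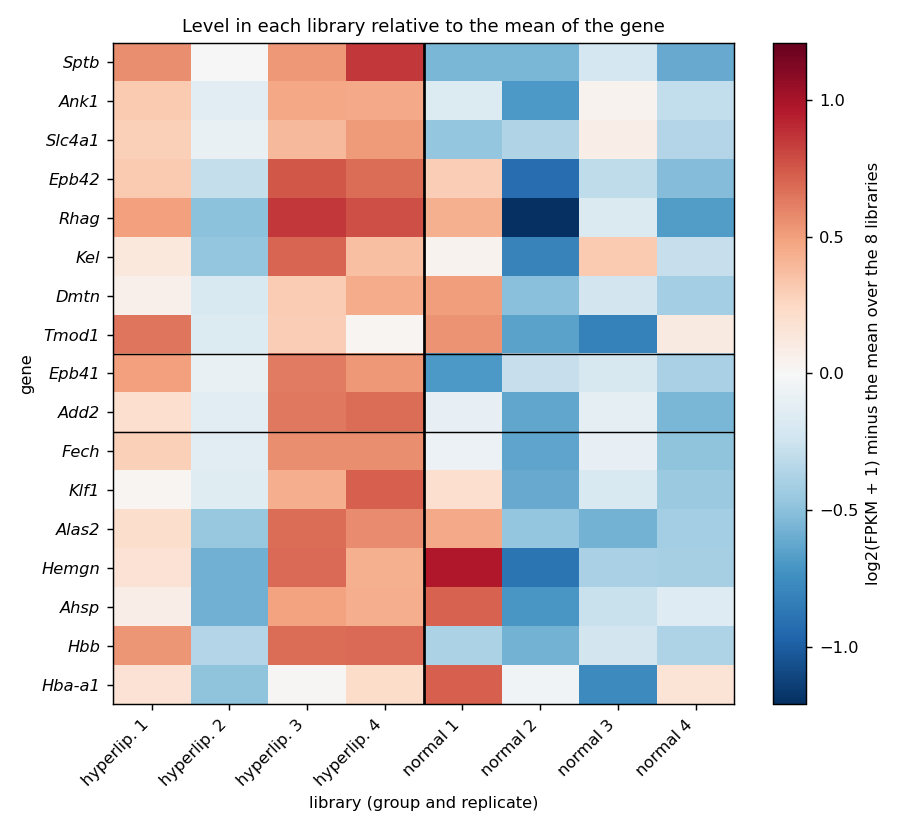
log2(FPKM + 1) of each gene minus its own mean over the 8 libraries, as colour, with 4 hyperlipidemic libraries left of the line and 4 normal ones right of it. Rows from the top are the 8 membrane genes, 2 other skeleton genes and 7 genes that act inside precursors. Normal replicate 1 is high for Rhag, Dmtn and Hemgn and low for Sptb, Slc4a1 and Epb41.

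Other genes of the red cell membrane were mostly higher too, with no call. Of 37 listed genes 30 were tested, with a median log2 change of 0.42. Of these, 26 were higher and 4 lower in the hyperlipidemic group, beside 65.0% of all genes higher. None passed over all genes, and 9 were higher and 1 lower at an unadjusted p under 0.05, beside 8.61% and 4.40% of all genes. Epb41, protein 4.1 of the actin junction, averaged 103 FPKM in hyperlipidemic and 58.8 FPKM in normal libraries without overlap (log2 change 0.78 ± 0.22 SE, limma adjusted p = 0.176). Add2, the adducin of red cell junctions, averaged 36.9 and 22.2 FPKM (log2 change 0.69, limma adjusted p = 0.293).

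Among surface proteins and channels of the list, Xk and Slc14a1 did not overlap between the groups either. With Epb41 they made 3 of the 30 tested that were higher without overlap, beside 4.19% of all genes. Xk, the membrane partner of Kell in humans, averaged 9.86 FPKM in hyperlipidemic and 4.20 FPKM in normal libraries (log2 change 1.12, limma adjusted p = 0.186). Slc14a1, the urea channel of red cells, averaged 15.2 and 7.04 FPKM (1.02, 0.234). Tfrc, the transferrin receptor that brings iron to precursors, averaged 156 and 84.6 FPKM (1.01, 0.260). Over 18 alternatives its limma adjusted p ran from 0.0296 to 0.582. It was under 0.05 in 1 of them, which left out normal replicate 3, the highest normal library at 154 FPKM. Aqp1, the water channel, averaged 203 and 131 FPKM (0.59, 0.312). Trpv2, a cation channel that other blood cells also make, was the listed gene whose groups parted the other way, at 3.36 FPKM in hyperlipidemic and 6.74 FPKM in normal libraries (-0.79, 0.335). Of all genes tested, 3.75% were lower without overlap. Actb, cytoplasmic actin and the most abundant gene of the list, lay between 1427 and 1687 FPKM in hyperlipidemic and between 1097 and 2067 FPKM in normal libraries.

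**Figure D3:**
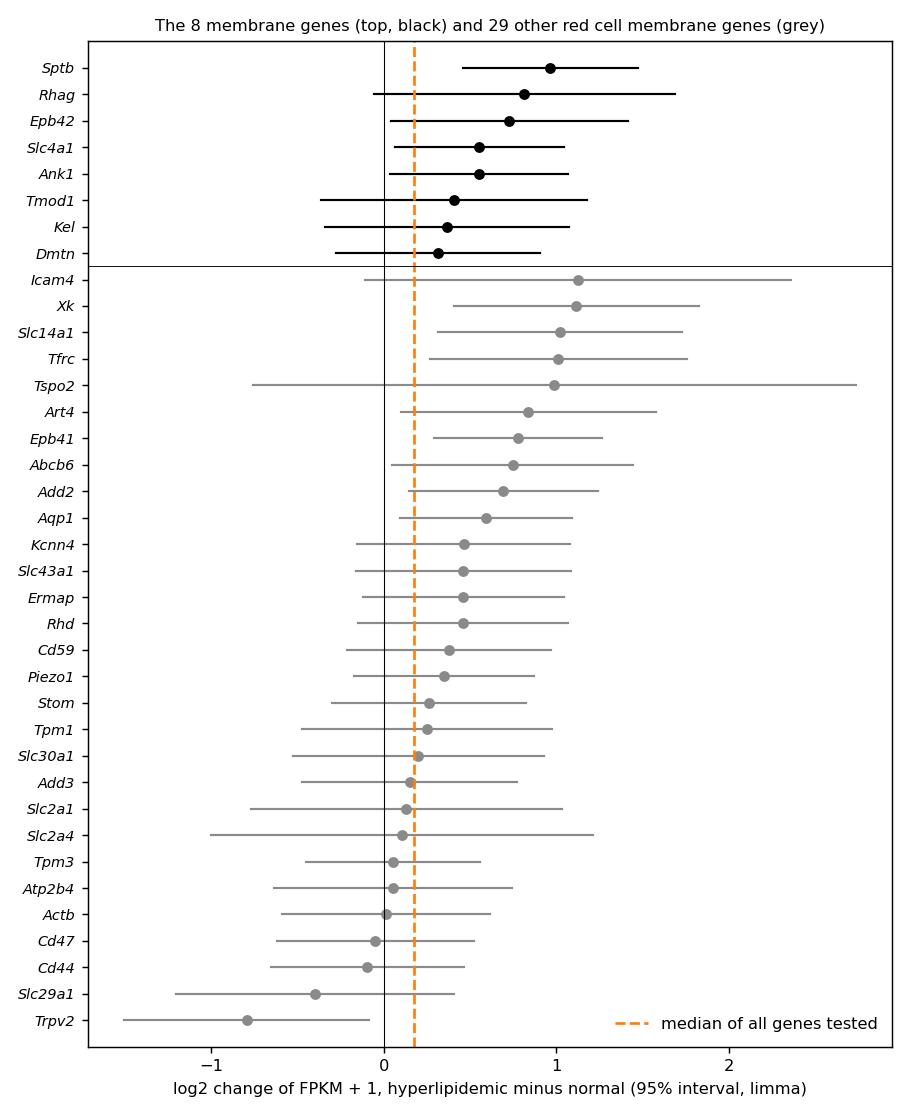
log2 change of FPKM + 1, hyperlipidemic minus normal, with its 95% interval from limma, for the 8 membrane genes (black, top) and 29 other red cell membrane genes (grey). The dashed line is the median of all 13742 genes tested, 0.18, and 25 of the 29 grey points lie right of 0.

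Ratios of partner genes within a library do not depend on a common scaling of that library, and they are given without a test, since the pairs were chosen after the values were seen. Slc4a1 to Sptb, band 3 over the spectrin it is anchored to, was 9.78, 11.3, 10.8 and 9.25 in hyperlipidemic replicates 1 to 4, against 12.9, 13.9, 14.8 and 14.6 in normal replicates 1 to 4. All hyperlipidemic ratios lay below all normal ones. Ank1 to Sptb averaged 0.861 ± 0.0891 in hyperlipidemic and 1.17 ± 0.186 in normal libraries (SD, n = 4 each), with normal replicate 2 at 0.898 inside the hyperlipidemic range. Dmtn to Sptb did not overlap, at 0.655 to 0.822 in hyperlipidemic and 0.927 to 2.02 in normal libraries. Tmod1 to Sptb overlapped, at 0.143 to 0.288 in hyperlipidemic and 0.150 to 0.591 in normal libraries. The ratios that parted, Slc4a1 to Sptb and Dmtn to Sptb, are divided by Sptb, a gene whose own groups did not overlap. How often ratios of other gene pairs part in this way was not tested. Slc4a1 to Ank1 averaged 12.0 ± 0.548 and 12.3 ± 2.36, and Rhag to Rhd, its partner in the Rh complex, 0.780 ± 0.177 and 0.606 ± 0.151. Epb42 to Slc4a1 averaged 0.199 ± 0.0326 and 0.186 ± 0.0882, and the highest ratio, 0.316, belonged to normal replicate 1. Kel to Xk averaged 1.54 ± 0.335 and 3.34 ± 2.17, with 6.46 in normal replicate 1.

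**Figure D4:**
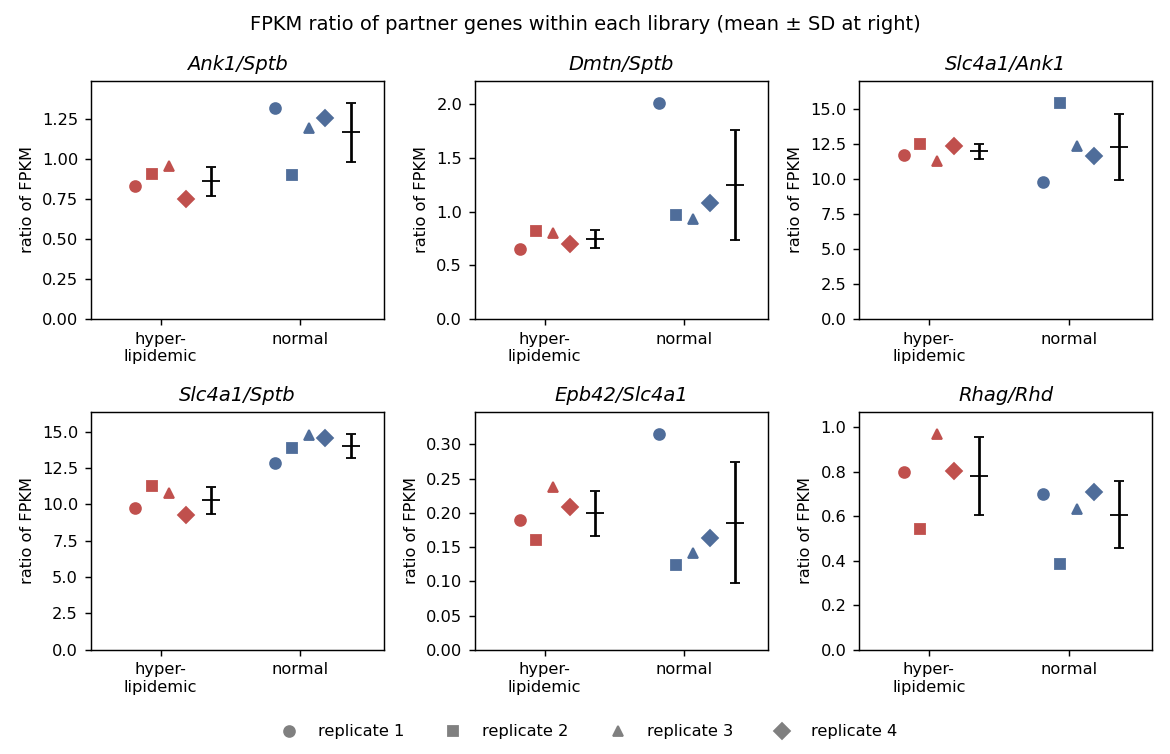
FPKM ratio of 6 pairs of partner genes within each library, in 4 hyperlipidemic (red, left) and 4 normal (blue, right) libraries, with the replicate number shown by the shape of the symbol and the group mean ± SD as the bar. Slc4a1/Sptb is between 9.25 and 11.3 in hyperlipidemic and between 12.9 and 14.8 in normal libraries, while Slc4a1/Ank1 overlaps.

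Relatives of the 8 genes that serve other cells were looked at as well. Of 30 listed paralogs 13 were tested, of which 7 were higher and 6 lower, beside 65.0% of all genes higher. Their median log2 change was 0.06, against 0.18 for all genes. None passed over all genes, and 1 was higher at an unadjusted p under 0.05, beside 8.61% of all genes. Of those tested 1, Tmod3, was higher without overlap, beside 4.19% of all genes. Sptbn1, the beta spectrin of most other cells, was at 29.5 to 37.7 FPKM in hyperlipidemic and at 19.4 to 35.7 FPKM in normal libraries (log2 change 0.30, limma adjusted p = 0.594). Slc4a2, an anion exchanger of osteoclasts and many other cells, was at 4.92 to 9.31 and at 6.85 to 12.8 FPKM (-0.56, 0.413). Tmod3, the widely made tropomodulin, was at 9.85 to 13.3 and at 8.20 to 9.69 FPKM (0.32, 0.505). Tgm2, the active transglutaminase related to Epb42, was the one with an unadjusted p under 0.05, at 5.33 to 8.75 and at 0.573 to 6.58 FPKM (1.29, 0.294). Ank2 and Ank3 were under 1.1 FPKM in every library, and Rhbg, the Rh glycoprotein of other tissues, under 0.8 FPKM. Phex, an endopeptidase of bone cells related to Kel, was at 7.50 to 10.3 and at 8.42 to 25.1 FPKM (-0.52, 0.493), and Ablim1, an actin-binding relative of dematin, at 0.499 to 2.40 and at 1.95 to 2.86 FPKM (-0.31, 0.698). Whether the difference in Sptb exceeds that in Sptbn1 was not tested.

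Ank1, Sptb and Tmod1 are also made in striated muscle, and traces of skeletal muscle were present. The summed FPKM of 12 measured muscle markers was 107, 15.6, 2.17 and 2.77 in hyperlipidemic replicates 1 to 4, against 22.8, 3.77, 8.79 and 0.375 in normal replicates 1 to 4. Of 15 listed markers 9 were tested, of which 8 were higher, beside 65.0% of all genes. Acta1, skeletal actin, was the most abundant, at 0 to 16.6 FPKM in hyperlipidemic and 0.125 to 21.8 FPKM in normal libraries, and Mylpf and Pvalb were listed at 0 in all normal libraries. Hyperlipidemic replicate 3, with 2.17 FPKM of muscle markers, held the highest Ank1, Epb42, Rhag and Kel. Without hyperlipidemic replicate 1, the library with most muscle, the median log2 change of the 8 genes was 0.54. In that setting 1 of the 8 had an unadjusted p under 0.05, and the smallest limma adjusted p was 0.292. Normal replicate 1 owed its sum to Acta1, and 10 of the 12 measured markers were listed at 0 there, whereas none was at 0 in hyperlipidemic replicate 1. Tmod1 was highest in replicate 1 of both groups. The part of muscle in the values of Tmod1 and of the other membrane genes was not tested.

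Among markers of other cells 1 passed, Bglap, which fell, as 1.24% of all genes did. Of 12 megakaryocyte and platelet markers 12 were higher, beside 65.0% of all genes, with sums of 230 to 458 FPKM in hyperlipidemic and 126 to 262 FPKM in normal libraries. Of 12 B cell markers 10 were lower and 2 higher, with sums of 57.3 to 121 and 128 to 158 FPKM. Of 11 osteoblast markers tested 10 were lower and 1 higher, with sums of 1315 to 2257 and 2703 to 4341 FPKM. The sums overlapped for neutrophil precursor markers, at 9664 to 12535 and 9671 to 12177 FPKM, and for macrophage markers, at 170 to 249 and 163 to 240 FPKM. Of 11 neutrophil precursor markers tested 3 were higher and 8 lower, and of 10 macrophage markers 5 were higher and 5 lower. Neuron markers were looked at because spectrin and dematin genes are used in neurons. Of 10 listed, only 3 had a locus in the deposited table, and 0 passed the filter on low values. Those 3 summed to 0.156 to 0.949 FPKM in hyperlipidemic and 0.0332 to 0.354 FPKM in normal libraries. The most abundant of these lists were Pf4 and Ppbp, Igll1 and Cd79a, Col1a1 and Sparc, S100a8 and S100a9, Cd68 and C1qc, and Tubb3 and Map2. The part of these cells in the membrane genes was not tested.

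The genes with a pattern across the 8 libraries most like the mean of the 8 membrane genes were ranked by the root mean square difference of centred log2 values among 10515 genes. First came Fech, the last enzyme of haem synthesis, at 0.0877, and Suco at 0.0980, Map4k5 at 0.120 and Specc1 at 0.127 were among the next. Add2, Prdx2, Rps27a and Usp25 lay at 0.132 to 0.139. Fech measured 99.7, 74.7, 121 and 121 FPKM in hyperlipidemic replicates 1 to 4, against 77.6, 52.0, 76.0 and 57.8 in normal replicates 1 to 4. Of the genes named, Fech and Prdx2 stood on the list of precursor genes and Add2 on that of the membrane. Of the 8 themselves, Ank1 was closest to their common mean, at 0.126, and Tmod1 farthest, at 0.399. Each of the 8 is part of that mean, so their distances cannot be set beside those of the other genes.

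Long non-coding transcripts (lncRNAs) within 50000 bp of the 8 loci numbered 27, near 6 of the genes, and 21 overlapped the locus itself. None passed over all lncRNAs tested (limma adjusted p of at least 0.312), as 0.0843% of all lncRNAs did. Of the 27, 19 were higher and 8 lower, beside 69.0% higher among all, and 3 were higher without overlap, beside 2.93% of all. At an unadjusted p under 0.05 stood 6 of the 27, in either direction, and 7.37% of all. These 6 include a transcript near Sptb that was lower in the hyperlipidemic group. Of the 3 without overlap, that inside the Rhag locus lies at chr9:23484587-23485431. It measured 4.22, 3.29, 9.71 and 10.1 FPKM in hyperlipidemic replicates 1 to 4, against 0, 1.35, 1.01 and 0 in normal replicates 1 to 4. The other pair without overlap were assembled as part of the Kel locus. They measured 3.04 to 6.04 and 2.60 to 9.86 FPKM in hyperlipidemic libraries, against 0.0329 to 2.16 and 0.0123 to 2.56 in normal ones. The strand of these transcripts is not in the table used, so reads shared with the host gene cannot be told apart.

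Circular RNAs were listed for 1 of the 8 genes. Ank1 was the host of 5, of which 4 were tested and none passed (limma adjusted p of 0.281 to 0.293), beside 2.46% of all circular RNAs. All 4 were higher, as were 91.2% of all, none had an unadjusted p under 0.05, beside 16.5% of all, and none was free of overlap, beside 9.33% of all. Of 20 values in each group, 16 were above 0 in hyperlipidemic and 5 in normal libraries. In hyperlipidemic replicate 1 all 5 lay between 1.62 and 1.69 FPKM, nearly one value, so they are not separate evidence. The circle with the smallest p measured 1.64, 0.700, 1.68 and 1.34 in hyperlipidemic replicates 1 to 4, against 0, 0.516, 1.06 and 0 in normal replicates 1 to 4. Without a filter on low values 1 Ank1 circle passed, at 0.0332, the one with no value above 0 in the normal group, but 28.6% of all circular RNAs passed in that setting. Epb41 was the host of 31 circles, of which 29 were tested, all higher and none past the threshold.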

How the data were processed

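The authors deposited FPKM per library for genes, lncRNAs and circular RNAs. The submitters' processing notes name HISAT2 2.1.0, StringTie 1.3.3b, bcl2fastq 1.8.4 and build Rnor_6.0, without their roles. How the authors made the deposited fold change, its log2 value, the p-value and the q-value was not stated. Neither a count table nor deposited depths were used, so no precision from depth can be given.

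Kept were genes with a mean of at least 0.5 FPKM, lncRNAs with at least 0.1 and circular RNAs above 0 in at least 4 libraries. Log2 values were taken after adding 1 for genes and 0.1 for the others, which understates the change of low genes. Groups were compared with limma 3.58.1 in R 4.3.3, with a trend of variance on mean level, with Benjamini-Hochberg adjustment over all rows tested and calls under 0.05. On simulated data the mean estimates were close to the changes put in and most large changes were called, but few genes changed by a log2 of 1 were called.

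The members, lists and tests were chosen with earlier results of these data known. The rule for naming took every member, the other membrane genes with the 6 smallest p or the highest FPKM, fixed partners and regulators, the most abundant paralog of each member, the 2 most abundant markers of each other cell type, the listed genes that passed and the 10 genes closest in pattern. Named outside it, after their values were seen, were Aqp1, Trpv2, Rhd, Hbb, Hba-a1, Epor, Pvalb, Ank2 and the partner ratios. Alternatives were another pseudocount, other filters, scalings and weights, a replicate block, no trend, and libraries left out. Gata1 was not analysed here, and a few items that the rule covers are not reported here.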

Additional observations from a re-analysis of the deposited data

Results flagged for a closer look

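Of 82 groups of 4 libraries examined, 5 had 1 library far from the other 3, and chance gives such a gap in about 1 in 20. Sptb in normal replicate 3, at 20.0 FPKM, lay above 14.9 to 15.6 FPKM in the other normal libraries. Alas2 in normal replicate 1, at 302 FPKM, lay above 147 to 165 FPKM. Hemgn in normal replicate 1, at 190 FPKM, lay above 52.2 to 73.8 FPKM. The ratio of Dmtn to Sptb was 2.02 in normal replicate 1, against 0.927 to 1.08 in the other normal libraries. The ratio of Kel to Xk was 2.04 in hyperlipidemic replicate 3, against 1.32 to 1.43 in the other hyperlipidemic libraries.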

How the results depend on the processing

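All 8 membrane genes kept a higher mean log2 value in the hyperlipidemic group under each of the 18 alternatives, and none was called except Sptb, so that 1 gene was called, under quantile normalization. Of all genes 191 were called, and 107 without a filter on low values, where more genes were tested; leaving out each library gave 109 to 215. lncRNA calls, 12 in all, became 6 without a filter and 1 to 8 on leaving out each library. Circular RNA calls, 14 in all, became 0 with a pseudocount of 1, 221 without a filter, 0 with a replicate block and 0 to 81 on leaving out each library; the cause was not tested. Hba-a1, at -0.04, was at 0.72 under quantile normalization, 0.15 with array quality weights, 0.13 without replicate 1 of each group, and -0.30 to 0.20 on leaving out each library. With a replicate block 151 genes were called, and none of the 8. Same-numbered libraries deviated together by an r across genes of 0.01 to 0.13, and 5 of the 8 libraries resembled their own number most. Whether the numbers stand for pairs was not tested. The labels name no pairs, so the main comparison took none. With 4 libraries per group and no depths used, adjusted p near the threshold move with single libraries.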
